A study of Mus musculus with 16 samples.

Results

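Of the 15617 autosomal probes that the array names by a genome position instead of a gene, 4509 probes in 2528 regions were bright enough to be described in mouse embryonic stem cells (mESCs). The members were chosen by their own signal. A probe was kept where at least 1 of the 6 groups had Feature Extraction's flag for a signal well above background on all of its arrays, so detection is given as a description. The kept probes were 28.9% of the position-named autosomal probes and lay in 2528 of 4432 regions. A region here is a position and strand as the array spells it, on assembly mm9, with F read as the forward and R as the reverse strand. No mm9 annotation was used here, so whether a region lies in a gene, an exon or an intron is not given. Of the 2528 regions, 1453 had 1 member probe and 1075 had 2 or more, up to 10. Region length ran from 74 to 533972 bp with a median of 12329 bp. On the same strand, 805 regions overlapped another, and joining these left 2073 separate loci, so overlapping regions are not independent readings.

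Expression arrays of this kind carry, next to the probes for annotated genes, probes for candidate long intergenic non-coding RNAs (lincRNAs), transcripts that arise between protein-coding genes and are often weakly expressed. DNA methyltransferases place methyl groups on cytosine, Dnmt1 mainly by copying the pattern at replication and Dnmt3a and Dnmt3b by setting it anew, with Dnmt3l as a cofactor without activity of its own. Methylation keeps imprinted non-coding RNAs and many transposon-derived transcripts silent on 1 or both alleles, and culture in 2i lowers it in wild-type mESCs.

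Total RNA was hybridised to 16 one-colour arrays from 3 male lines. J1 is wild type, and both other lines derive from it. TKO cells are J1 cells without Dnmt1, Dnmt3a and Dnmt3b. The 3B3l line is a double knockout of Dnmt3a and Dnmt3b with Dnmt1 intact, to which exogenous Dnmt3b and Dnmt3l were added under constitutive expression. Each line was grown in serum with 500 U/ml LIF or for 2 weeks in 2i, a serum-free medium with 1 µM of the MEK inhibitor PD0325901, 3 µM of the GSK3 inhibitor CHIR99021 and 1000 U/ml LIF. For J1 there were 4 arrays in serum and 3 in 2i, for TKO 2 and 3, and for 3B3l 2 in each medium. Per the study's methods the J1 cells in serum grew on feeder cells and the other groups on gelatin, and TKO and 3B3l are each a single line. The labels do not say that replicates were separate cultures, so p-values measure only the spread between these arrays, which may be technical.

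The array names these probes by position alone, but 31 members in 10 regions are paired with 8 genes in a table of the study (Nab1, Crabp2, Plekha8, 2310045N01Rik, Snx6, Pdxk-ps, Cic and Uck1). The label intergenic is therefore not supported for these 10 regions, and the probes are called position-named here. For the 2 Uck1 probes the position is on chromosome 6 while RefSeq (GRCm38.p6) places Uck1 on chromosome 2. The same table holds the probe sequences, each 60 bases long, of which the first 30 are printed 5′ to 3′. The first set shows why probes of overlapping regions are not independent readings. Capitals mark bases that also belong to the other probe of the pair, and each pair overlaps, in whole, by the number of bases given after it.

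A_30_P01022963: taatttaatgGACCTTTACTTAGAAATGTA
A_30_P01024829: GACCTTTACTTAGAAATGTATTGGAGCCTT
A_30_P01023067: atcataatGCTGATAGGAATCAAGTTAAAC
A_30_P01017889: GCTGATAGGAATCAAGTTAAACTACGAAAG
A_30_P01020648: agactcaccaagaactgaagacctagcAAG
A_30_P01025948: AAGTGGCCAGTGCCTGCTGCCTACTGATTC

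The first pair shares 50 of 60 bases and the second 52. Both are paired with Plekha8, a lipid transfer protein of the Golgi, and come from chr6:54595084-54595833 and chr6:54591416-54597566 on the forward strand. The third pair shares 33 bases, is paired with 2310045N01Rik, and comes from chr8:72663625-72673010 and chr8:72663591-72671154 on the forward strand. Their 2i responses in J1, on the log2 scale, were 0.82 and 0.84 in the first pair, 0.87 and 0.83 in the second and 0.78 and 0.79 in the third. The second set shows probes of single regions whose sequences do not overlap, with no capitals.

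A_30_P01024904: ggaccatttctccctaagtctgtgttattc
A_30_P01029012: gatacttccactgaacaaggtcaattggtt
A_30_P01018420: ggtccaagaactgcctgagacgacttccgt
A_30_P01018307: atcttacaaactagctctccccttactcct

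The first 2 of these lie at chr1:52507332-52514490 on the reverse strand and are paired with Nab1, a corepressor of EGR transcription factors. Their 2i responses in J1 were -1.24 and -1.10. The last 2 lie at chr3:87757295-87774970 on the forward strand and are paired with Crabp2, which carries retinoic acid. There the responses were -1.83 and -0.46, so 2 probes of 1 region gave different sizes.

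All levels below are processed signals on the log2 scale, scaled by subtracting the array's own 75th percentile, and the value of a region on an array is the median over its member probes. Tests are limma's moderated tests of 6 group means fitted to all 16 arrays, two-sided, with P.adj. by Benjamini-Hochberg over all 27126 tested probes of the array that the comparison could use. A probe was called at a fold change of at least 2 and P.adj. of at most 0.05. The difference given for a region is the median over its member probes of each probe's own difference, and the P.adj. beside it is the highest among those probes.

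Before the results, the arrays themselves. Between 39.7% and 49.0% of all probes were well above background on an array, and the number of arrays limits the precision. The Dnmt1 probe read -1.70 to -1.42 on the 5 TKO arrays and 1.61 to 2.45 on all others. On none of the TKO and 3B3l arrays did the Dnmt3a probe pass the background flag. The Dnmt1 probe and all 3 Dnmt3b probes did pass it on all 5 TKO arrays, where the Dnmt3b probes read -1.94 to 0.39, and whether these probes lie in the deleted parts is not given here. One Dnmt3b probe read 5.44 to 6.01 in 3B3l while the other 2 were at most 0.86 there. All 10 pluripotency genes of a list were well above background on every array. The arrays lay on 3 slides, with all 3B3l arrays and J1-serum replicate 1 on slide 3. With the groups in the model, slide 3 differed from slide 1 at 203 of 4237 members (4.79%, against 3.48% of all probes). This was at P.adj. of at most 0.05 without a fold limit. With a fold change of at least 2 it differed at 145 members, for which no share of all probes is given. This contrast rests on J1-serum replicate 1. The counts below rested in part on single arrays. TKO-2i replicate 1, TKO-serum replicates 1 and 2, J1-serum replicate 1, J1-2i replicates 2 and 3 and 3B3l-2i replicate 1, among others, each moved a count of calls or its split when left out, and those values are given beside the counts.

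Position-named probes were detected in fewer groups than the rest of the array. Of the 4509 members, 1796 (39.8%) were well above background on every array of all 6 groups, against 70.0% of the other tested probes. A further 844 members passed through 1 group alone. By group, 2674 members passed in J1 in serum (all 4 arrays) and 3151 in 2i (all 3). In TKO 3552 passed in serum (both arrays) and 3048 in 2i (all 3), and in 3B3l 2982 and 2532 (both arrays each). TKO-serum was the group with the most members, and 323 members passed through it alone. J1-2i followed with 231, 3B3l-serum with 106, TKO-2i with 97, J1-serum with 46 and 3B3l-2i with 41. A group of 2 arrays passes a probe more easily than a group of 4, and these counts used the flags that chose the members, so they carry no test. The lowest mean of a passing group was -2.67. Another 1361 position-named probes missed the rule by 1 array, with means of -5.07 to -0.11 and a median of -2.53, beside a median of -1.89 among members that passed through 1 group alone.

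**Figure D1:**
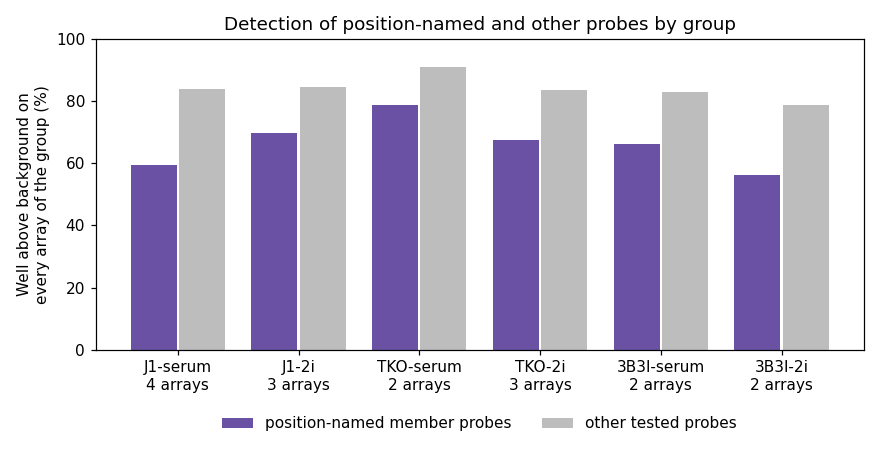
Share of probes well above background on every array of a group, in percent, for the 4509 position-named members (purple) and the other tested probes (grey), by group with its number of arrays. The members lie below the other probes in each group, from 56.2% in 3B3l-2i to 78.8% in TKO-serum against 78.8% to 91.1%.

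The brightest regions reached the scanner's ceiling on some or all arrays. chr17:17481706-17482457 on the reverse strand read 5.31 to 6.05 over the 16 arrays, and at least 1 of its 3 probes was saturated on 15 arrays. chr6:116123643-116124550 on the forward strand read 4.97 to 5.94, with a probe saturated on all 16. chr17:39983902-39985688 on the forward strand read 4.82 to 5.92 with saturation on up to 10 arrays, and chr19:56820850-56837925 on the reverse strand 4.87 to 5.63 with saturation on up to 2. A saturated spot gives only a lower limit of the signal, so differences between groups at these regions are not read. In all, 54 members were saturated on at least 1 array and 8 on all 16.

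The first comparison asked which position-named regions changed when wild-type cells moved from serum to 2i. In J1, 480 of 4488 tested members were higher in 2i (10.7%, against 9.8% of all tested probes) and 461 were lower (10.3%, against 11.2%). Of these, 333 of the higher and 327 of the lower calls had the dimmer group not well above background on every array. Among the 2297 members that passed the flag throughout both groups, 281 were called (12.2%, against 13.5% of all such probes). The median log2 response was -0.01 over the members and 0.04 over all tested probes. The share of members called lay near that of the array. Under array median scaling 62.9% of the calls were higher. Without J1-2i replicate 2 there were 456 higher and 484 lower calls.

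**Figure D2:**
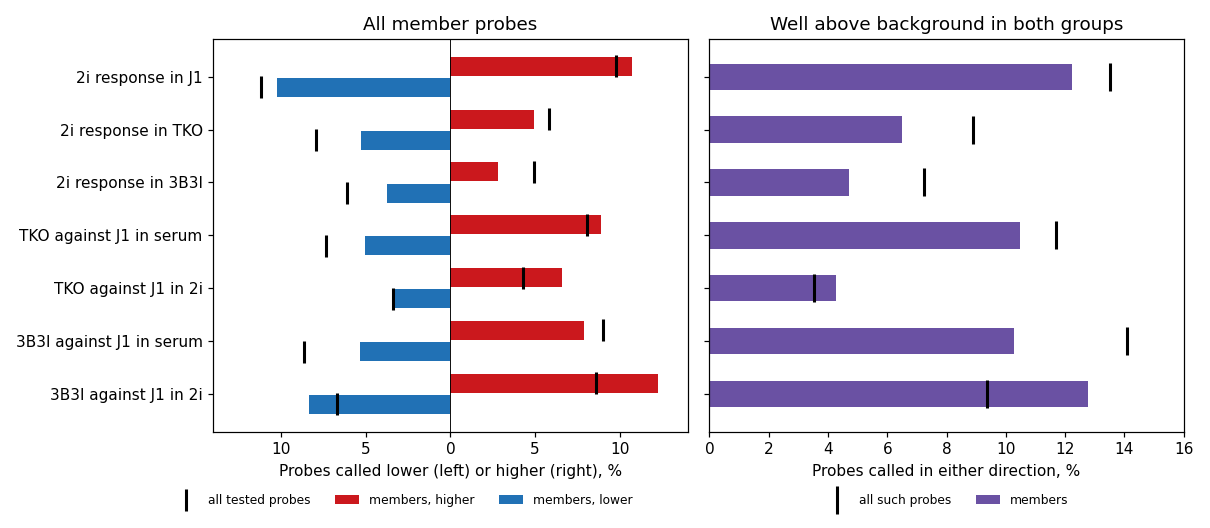
Left, percent of the position-named members called lower (blue, leftwards) or higher (red, rightwards) in 7 comparisons, with black marks for all tested probes of the array. Right, percent called in either direction among probes that passed the flag throughout both groups. In the 2i responses of TKO and 3B3l the members lie below the marks, at 4.93% and 2.79% higher against 5.79% and 4.91%. In 2i, 3B3l against J1 lies above them, at 12.3% higher against 8.57%. The 3B3l-2i and J1-2i arrays lay on different slides.

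The largest fall in J1 under the naming rule was at chr5:35975265-35982561 on the forward strand, where all 4 probes were members. The region read 2.79, 2.80, 3.43 and 3.45 in J1-serum and -0.79, -1.26 and -0.80 in J1-2i. In TKO-serum it read 0.45 and 1.11, in TKO-2i -0.77, -0.72 and -0.92, in 3B3l-serum 0.58 and -0.14, and in 3B3l-2i 3.35 and 3.22. J1-serum and 3B3l-2i were thus high, the other 2i groups low, and the serum groups of the mutant lines in between. The 2i response was -4.01 in J1 (SE 0.19 to 0.34 over the probes, limma P.adj. 7.86e-07), -1.48 in TKO (P.adj. 0.0463) and 3.21 in 3B3l (P.adj. 7.49e-05). The response in 3B3l exceeded that in J1 by 7.13 (SE 0.31 to 0.56, limma P.adj. 1.24e-06), and the arrays of the lines did not overlap within either medium except between TKO and 3B3l in serum and between J1 and TKO in 2i.

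A pair of overlapping regions on chromosome 10 fell in all 3 lines. chr10:83185606-83225506 on the forward strand (3 of 3 probes) read 2.77, 2.43, 2.24 and 2.40 in J1-serum and -0.83, -0.82 and -0.83 in J1-2i. It read 2.17 and 2.30 in TKO-serum against -0.35, 0.01 and -0.33 in TKO-2i, and 2.10 and 2.07 in 3B3l-serum against 0.48 and 0.23 in 3B3l-2i. Serum arrays were above 2i arrays in each line with no overlap, and the 3 lines lay close together in serum. The log2 responses were -3.29 in J1 (SE 0.10 to 0.14, limma P.adj. 1.46e-09), -2.46 in TKO (P.adj. 1.59e-07) and -1.73 in 3B3l (P.adj. 5.06e-05). The wider chr10:83181374-83249774 (5 of 5 probes) fell by 3.27, 2.24 and 1.07 on the log2 scale. A single-probe member with nearly the same bounds, chr10:83181374-83249918, had responses of -0.76, 0.02 and 0.01.

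Regions on chromosomes 4 and 13 rose in J1. chr4:146889650-146904300 on the forward strand (3 of 4 probes members) read -1.15, -0.88, -0.73 and -0.76 in J1-serum and 2.01, 1.95 and 2.02 in J1-2i. It read 1.90 and 1.82 in TKO-serum, 1.47, 1.55 and 1.48 in TKO-2i, 0.52 and 0.21 in 3B3l-serum, and 0.87 and 0.79 in 3B3l-2i. J1-serum was the only group below 0, and TKO was high in both media. The response in J1 was 2.82 (SE 0.08 to 0.19, limma P.adj. 6.55e-08).

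chr13:62376235-62376890 on the forward strand (3 of 3 probes) was likewise lowest in J1-serum. It read -1.11, -1.02, -1.05 and -0.98 in J1-serum, 1.41, 1.47 and 1.40 in J1-2i, 1.03 and 1.02 in TKO-serum and 1.12, 1.07 and 0.94 in TKO-2i, while the 4 3B3l arrays lay between -0.38 and 0.04. The response in J1 was 2.59 (limma P.adj. 1.34e-08) and that in TKO 0.10 (P.adj. 0.907). chr13:81773237-81783062 on the reverse strand (6 of 7 probes members) rose by 1.87 in J1 (SE 0.12 to 0.17, limma P.adj. 1.63e-06), and none of its 6 probes was called in TKO or 3B3l, where the responses were -0.04 and -0.53.

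J1-serum differed from the other groups in its feeder cells and in marker genes of other cell types, whose part in these results was not tested. Of 13 tested genes of a 16-gene feeder fibroblast list, 9 were lower in J1-2i than in J1-serum, and of 8 primitive endoderm genes all 8 were, against 11.2% of all tested probes. In the lines without feeders, 4 of the 13 feeder genes were lower and 1 higher in TKO-2i than in TKO-serum, and 6 were lower and 0 higher in 3B3l-2i than in 3B3l-serum. Of the 8 primitive endoderm genes 4 were lower in 2i in TKO and 3 in 3B3l. Over all tested probes 7.94% were lower in TKO and 6.11% in 3B3l. In serum 10 of the feeder genes and all 8 primitive endoderm genes were lower in TKO than in J1 (against 7.36% of all tested probes), and 5 and 8 were lower in 3B3l (against 8.62%). Between the lines in 2i, 3 of the 13 feeder genes were higher and 1 lower in TKO than in J1 (against 4.29% and 3.39% of all tested probes). In 3B3l 4 were higher and 1 lower (against 8.57% and 6.73%). Of the 8 primitive endoderm genes 0 were called in TKO, and in 3B3l 1 was higher and 1 lower. The 2i response differed from that in J1 at 9 feeder and 8 primitive endoderm genes for TKO (against 14% of all tested probes) and at 7 and 8 for 3B3l (against 15.4%). The summed linear level of the feeder list was 143.7 to 169.7 in J1-serum and 136.1 to 147.5 in 3B3l-serum, which overlap, and 78.7 to 113.0 on the other arrays. A linear sum weighs the brightest genes most, such as Sparc (mean log2 5.55 in J1-serum and 5.53 in 3B3l-serum). By gene, 5 of the 13 were lower and 0 higher in 3B3l-serum, and Dcn read 1.43 in J1-serum and -3.31 in 3B3l-serum. For the primitive endoderm list it was 38.7 to 48.3 in J1-serum and 4.46 to 11.9 elsewhere. Of the 461 members lower in J1-2i, 429 (93.1%) were well above background on every array of TKO-serum or 3B3l-serum, which had no feeders, and 14 were so on no TKO or 3B3l array. Over all 4509 members these numbers were 3913 (86.8%) and 49, and the difference was not tested. In bulk RNA, fewer cells of a type and less RNA per cell cannot be told apart.

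The next comparison asked how cells without DNA methyltransferases responded to 2i. In TKO, 220 of 4464 members were higher (4.93%, against 5.79% of all tested probes) and 235 were lower (5.26%, against 7.94%). Among the 2682 members well above background in both groups, 174 were called (6.49%, against 8.89%). Which direction held more calls rested on the TKO-serum arrays. Without replicate 1 there were 178 higher and 249 lower calls, and without replicate 2 there were 292 and 219, so that 41.7% or 57.1% of the calls were higher instead of 48.4%. Besides the regions on chromosome 10, the named fall was at the Nab1-paired chr1:52507332-52514490 on the reverse strand (3 of 4 probes members). It read 1.93 and 1.51 in TKO-serum and -0.30, -0.67 and -0.98 in TKO-2i, 0.82, 0.39, 0.54 and 0.53 in J1-serum and -0.73, -0.59 and -0.57 in J1-2i, and 1.20 and 1.19 in 3B3l-serum and -0.50 and -0.59 in 3B3l-2i. TKO-serum was the highest group and the 2i groups overlapped. The response was -2.37 in TKO (SE 0.15 to 0.18, limma P.adj. 6.55e-07), -1.10 in J1, where 2 of 3 probes were called, and -1.53 in 3B3l. The overlapping chr1:52507374-52514124, with 2 members, had responses of -0.09 in TKO, -0.31 in J1 and 0.01 in 3B3l.

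The regions named next were higher in TKO-2i than in TKO-serum. chr4:127020290-127020504 on the forward strand (2 of 2 probes) read -2.02 and -1.90 in TKO-serum and 0.36, 0.20 and 0.07 in TKO-2i, a response of 2.17 (limma P.adj. 4.1e-07). Its probes were also called in J1 and 3B3l, where in serum 1 probe, a different one in each line, was well above background on no array. In 2i that probe was at least 9.30-fold higher in J1, and its counterpart was at least 2.40-fold higher in 3B3l. chr8:59994102-59994797 on the forward strand (3 of 3 probes) read 0.57 and 0.54 in TKO-serum and 2.00, 2.01 and 2.02 in TKO-2i, a response of 1.61 (limma P.adj. 3.7e-05), with none of its probes called in J1 or 3B3l. The wider chr8:59994074-60002058, with 4 members, had a response of 0.01 in TKO. chr13:98270713-98272269 on the forward strand (3 of 3 probes) read -1.32 and -1.33 in TKO-serum and 0.23, 0.27 and 0.70 in TKO-2i, a response of 1.46 (limma P.adj. 0.00221).

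In 3B3l, whose exogenous Dnmt3b and Dnmt3l stay on in 2i, 125 of 4481 members were higher (2.79%, against 4.91% of all tested probes) and 168 were lower (3.75%, against 6.11%). Among the 2342 members well above background in both groups, 110 were called (4.70%, against 7.25%). Under array median scaling 157 were higher and 136 lower, which makes 53.6% of the calls higher instead of 42.7%. A fall seen here and not in J1 was at chr1:183783306-183834531 on the reverse strand (3 of 4 probes members). It read 1.08 and 0.88 in 3B3l-serum and -2.07 and -1.93 in 3B3l-2i, while J1-serum read -1.58, -1.35, -1.48 and -1.33, J1-2i -1.51, -1.59 and -0.92, TKO-serum 0.13 and 0.17, and TKO-2i -0.31, -0.32 and -0.32. The response was -3.12 in 3B3l (limma P.adj. 2.84e-07) and -0.01 in J1, and the difference between them was -3.11 (P.adj. 1.8e-06). Of its 3 probes 1 was well above background on no 3B3l-2i array and fell at least 6.85-fold, and the probe that passed the flag on both of these arrays had a response of -2.73. An overlapping region with other probes, chr1:183832694-183834125 (3 of 3 probes), read 3.16 and 2.79 in 3B3l-serum and 1.57 and 1.35 in 3B3l-2i, a response of -1.66 (limma P.adj. 2.2e-05).

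Other regions named in 3B3l moved less. chr7:67111261-67120697 on the reverse strand (2 of 2 probes) read 2.62 and 2.64 in serum and 0.92 and 1.24 in 2i, a response of -1.55 (limma P.adj. 6.9e-05), while in J1 it was 0.68 and not called. chr17:17342991-17343357 on the forward strand (2 of 2 probes) read 1.96 and 1.85 in serum and 3.29 and 3.76 in 2i, a response of 1.62 (limma P.adj. 0.00031), of which 1 probe was no longer called without 3B3l-2i replicate 2 (1.39). chr7:6210340-6229115 on the forward strand (4 of 7 probes members) read 0.92 and 0.76 in serum and 2.44 and 2.27 in 2i, a response of 1.68 (limma P.adj. 0.00088). There 1 of the 4 probes was no longer called without 3B3l-serum replicate 2 (1.43) or without 3B3l-2i replicate 1 (1.61).

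The 2i responses of the 3 lines come from separate arrays. In all 3 lines 29 members were higher, in 19 regions, and 37 were lower, in 23 regions. The 29 were 6.04% of the J1, 13.2% of the TKO and 23.2% of the 3B3l higher calls, and the 37 were 8.03%, 15.7% and 22.0% of the lower calls. Over all tested probes 411 were higher in the 3 lines, which was 15.5%, 26.3% and 30.9% of the higher calls of J1, TKO and 3B3l, and 695 were lower, which was 23.0%, 32.4% and 42.1%. The members' shares were thus below those of the array in each line and direction, a difference that was not tested. Of the regions with 2 or more members, every member was called in 3 that were higher and 4 that were lower. Of the members called in both J1 and TKO, 79 were higher in both and 88 lower in both. A further 17 were higher in J1 and lower in TKO, and 1 the other way round. For J1 and 3B3l these numbers were 65, 51, 7 and 8, and for TKO and 3B3l 43, 81, 2 and 9. The matching counts over all tested probes are not given here, so nothing is read from these.

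Among regions called in the 3 lines, those with the largest mean responses were dim in 1 of the media. chr1:134171292-134176062 on the reverse strand (2 of 3 probes members) read -3.13, -1.67, -2.54 and -2.27 in J1-serum and 0.74, 0.76 and 0.82 in J1-2i. It read -2.65 and -2.02 in TKO-serum and -0.06, -0.40 and -0.24 in TKO-2i, and -2.88 and -2.62 in 3B3l-serum and -0.45 and -0.27 in 3B3l-2i. Every 2i array was above every serum array, and in each serum group 1 of the 2 probes was well above background on no array. That probe was kept through 2i groups alone, so the media had to differ there by the way it was chosen. Its bounds are a description with no test, and it also enters the region's values above. It was at least 10.8-fold higher in 2i in J1. In TKO it was at least 5.33-fold higher, and in 3B3l at least 2.89-fold. The other probe, detected on all 16 arrays, had log2 responses of 2.31 in J1, 1.45 in TKO and 2.12 in 3B3l (limma P.adj. 2.3e-05, 0.0058 and 0.001). In TKO 1 of the 2 probes was not called without TKO-serum replicate 1. The wider chr1:134167181-134181386, with 1 member, had responses of 0.24 in J1, 0.73 in TKO and -0.25 in 3B3l. For chr1:134167181-134181457, with 2 members, they were 0.10, 0.91 and -0.86.

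Where a group was below background throughout, only a bound is given, the bright group's mean against the lowest signal well above background on the dim arrays. Of these regions, the probes of chr17:24157887-24158104 were kept through J1-2i and TKO-2i alone, and those of chr5:125713450-125735500 and chr6:34548561-34612216 through serum groups alone. Where a bound is given for them the media had to differ by the way the probes were chosen, and these bounds are a description with no test. chr17:24157887-24158104 on the reverse strand (2 of 2 probes) was at least 3.89-fold higher in J1-2i than in J1-serum and at least 5.38-fold higher in TKO-2i than in TKO-serum, and no fold is given for 3B3l, where both groups were below background. The wider chr17:24152225-24169870, with 3 members, had log2 responses of 0.33 in J1, 0.38 in TKO and -0.49 in 3B3l. chr17:21653676-21667959 on the forward strand (1 of 3 probes a member) was 2.32 higher in J1-2i than in J1-serum on the log2 scale and at least 2.55-fold higher in 3B3l-2i than in 3B3l-serum (limma P.adj. 3.5e-09 and 4.9e-07). chr5:125713450-125735500 on the reverse strand, with 1 probe, was at least 8.87-fold lower in 2i in J1. In TKO it was at least 5.41-fold lower, and in 3B3l at least 1.96-fold. chr6:34548561-34612216 on the forward strand, also with 1 probe, was at least 5.76-fold lower in 2i in J1. In TKO it was at least 2.75-fold lower, and in 3B3l at least 10.8-fold. In this last region 3B3l-serum read 1.15 and 1.08, above the J1-serum range of -0.82 to -0.26 and the TKO-serum values of -1.96 and -1.37.

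**Figure D3:**
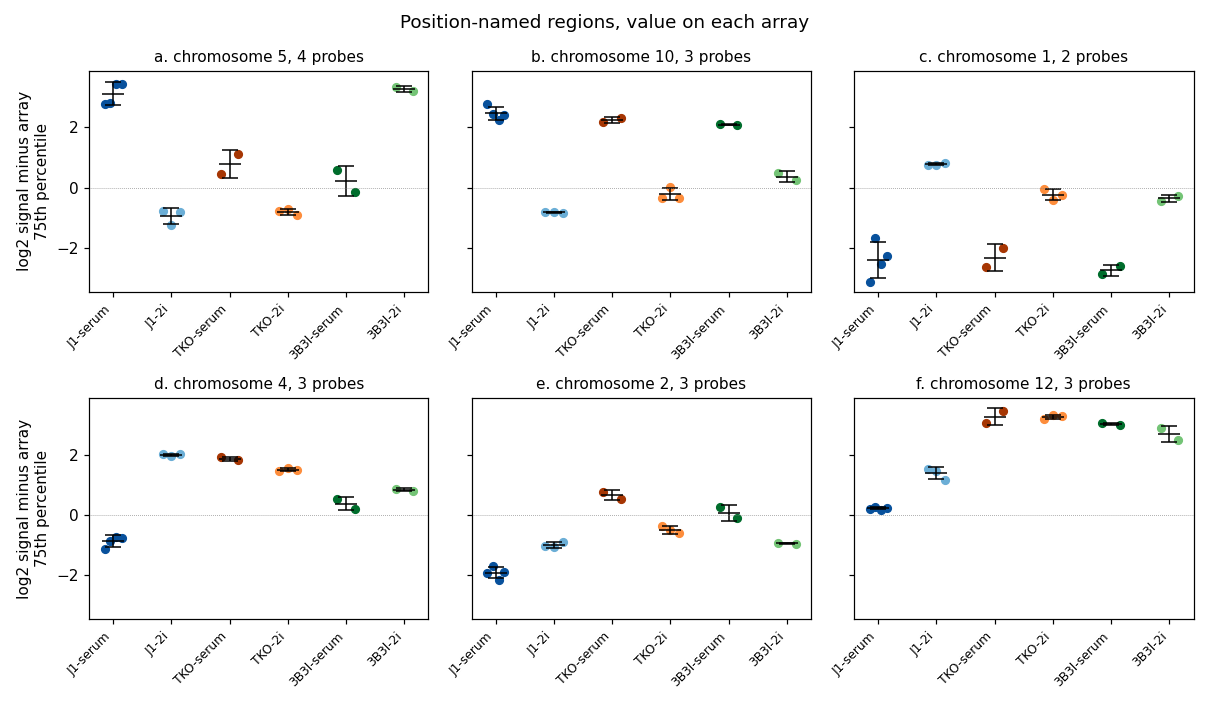
Level of 6 regions on each array as log2 signal minus the array's 75th percentile, by group, with the mean and SD over the arrays of a group (black). Panel a is chr5:35975265-35982561, where J1-serum and 3B3l-2i are high. Panel b is chr10:83185606-83225506, where serum lies above 2i in each line, and panel c is chr1:134171292-134176062, where 2i lies above serum. In panel c a probe of the region was kept through 2i groups alone, so the media had to differ there by that choice. In panels d, e and f, chr4:146889650-146904300, chr2:104597982-104600748 and chr12:110973190-110987668, J1-serum lies below the other groups.

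In serum, TKO was compared with J1 to find regions that differed when the methyltransferases were absent. The feeder and primitive endoderm markers counted above moved with both serum comparisons. Of 4472 members, 397 were higher in TKO (8.88%, against 8.04% of all tested probes) and 225 were lower (5.03%, against 7.36%). Among the 2462 members well above background in both groups 258 were called (10.5%, against 11.7%). Without TKO-serum replicate 1 the calls were 374 higher and 138 lower. In regions with 2 or more members, every member was higher in 52 and lower in 14. For 3B3l against J1 in serum, 353 of 4480 members were higher (7.88%, against 8.99%) and 239 were lower (5.33%, against 8.62%), with 234 of 2276 called among members well above background in both groups (10.3%, against 14.1%). Without J1-serum replicate 1, the one J1 array on the slide of 3B3l, the 592 calls of the 3B3l comparison became 812. Both comparisons share the J1-serum arrays, so an unusual J1-serum value moves both in the same direction.

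chr2:104597982-104600748 on the reverse strand (3 of 3 probes) was higher in both mutant lines in serum. It read -1.95, -1.71, -2.15 and -1.89 in J1-serum, 0.77 and 0.53 in TKO-serum, 0.26 and -0.12 in 3B3l-serum, -1.03, -1.07 and -0.89 in J1-2i, -0.36, -0.52 and -0.61 in TKO-2i, and -0.94 and -0.96 in 3B3l-2i. The mutant lines in serum lay above all other groups without overlap, and J1-serum was the lowest group. The difference from J1-serum was 2.61 for TKO (SE 0.12 to 0.14, limma P.adj. 3.82e-08) and 2.11 for 3B3l (P.adj. 6.05e-07). In 2i no probe of this region was called between either mutant line and J1.

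chr13:98267049-98267604 on the forward strand (3 of 3 probes) read 0.96 to 1.14 in J1-serum and 2.64 to 3.38 on the other 12 arrays. J1-serum alone was low. TKO exceeded J1 in serum by 2.19 (limma P.adj. 1.97e-06) and 3B3l by 2.12 (P.adj. 1.07e-06), and J1 rose by 1.81 in 2i (P.adj. 5.97e-06). The chromosome 4 region named above exceeded J1-serum by 2.74 in TKO (SE 0.09 to 0.21, limma P.adj. 6.57e-07) and by 1.18 in 3B3l (P.adj. 0.000118).

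chr11:93994795-94017045 on the forward strand (2 of 2 probes) was lower in both mutant lines in both media. It read 0.43, 0.75, 0.61 and 0.58 in J1-serum and 0.17, 0.02 and 0.02 in J1-2i. The 5 TKO arrays lay between -1.64 and -1.25 and the 4 3B3l arrays between -1.70 and -1.20, all below every J1 array. In serum the difference was -2.16 for TKO (SE 0.11 to 0.16, limma P.adj. 4.92e-07) and -2.25 for 3B3l (P.adj. 1.02e-07), and in 2i -1.46 (P.adj. 9.72e-06) and -1.35 (P.adj. 1.93e-05). Neither probe was called for the 2i response of any line.

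Further regions were highest in J1-serum. chr10:81816994-81863610 on the forward strand (2 of 3 probes members) read -0.26 to -0.42 on the 4 J1-serum arrays, -1.95 and -1.78 in TKO-serum, and at most -2.20 in the 2i groups and 3B3l. TKO-serum was lower by 1.52 on the log2 scale (limma P.adj. 0.00129). chr17:15368546-15377747 on the reverse strand (3 of 3 probes) read 0.67 to 0.86 in J1-serum and -0.79 on both 3B3l-serum arrays, a difference of -1.49 (limma P.adj. 1.5e-05). In 3B3l-2i this region was not well above background, at least 2.89-fold below 3B3l-serum and at least 6.09-fold below J1-2i (limma P.adj. 5.95e-05 and 5.4e-07).

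In 2i, where wild-type DNA is itself less methylated, 294 of 4479 members were higher in TKO than in J1 (6.56%, against 4.29% of all tested probes) and 149 were lower (3.33%, against 3.39%). Among the 2610 members well above background in both groups, 111 were called (4.25%, against 3.54%). These counts rested on single arrays. The 443 calls became 848 without TKO-2i replicate 1, with 53.4% instead of 66.4% higher, and 250, 272 and 264 without TKO-2i replicate 2, TKO-2i replicate 3 and J1-2i replicate 3. On slide 1 alone there were 843. Some feeder markers counted above also differed in both 2i comparisons, and their part was not tested. For 3B3l against J1 in 2i, 550 of 4483 members were higher (12.3%, against 8.57%) and 375 were lower (8.36%, against 6.73%), with 267 of 2093 called among members well above background in both groups (12.8%, against 9.35%). Without 3B3l-2i replicate 1 the 925 calls became 662, of which 42.9% instead of 59.5% were higher, and with the slide as a block they became 415, of which 42.7% were higher. In this comparison the members' share of calls lay above that of the array, and in 373 of the higher and 285 of the lower calls the dimmer group missed the flag on some array. Both 3B3l-2i arrays lay on slide 3 and every J1-2i array on slide 1 or 2, so line and slide cannot be told apart here. The share of all tested probes called with the slide as a block is not given.

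chr5:37051650-37110575 on the reverse strand (5 of 5 probes) was higher in both mutant lines in 2i. It read 1.57, 1.54, 1.47 and 1.49 in J1-serum and -0.44, -0.57 and -0.49 in J1-2i, while the 4 groups of mutant cells lay between 0.72 and 1.87. J1-2i alone was low. TKO exceeded J1 in 2i by 1.40 (SE 0.11 to 0.19, limma P.adj. 0.000304) and 3B3l by 1.67 (P.adj. 0.000102), both against the same J1-2i arrays, and J1 fell by 2.04 on the log2 scale in 2i (P.adj. 2.71e-06).

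TKO in 2i was low at a pair of overlapping regions on chromosome 8. chr8:119090566-119097735 on the reverse strand (5 of 5 probes) read 1.02, 1.02 and 0.77 in TKO-2i, 1.74 and 2.10 in TKO-serum, 2.29 to 2.52 in J1-serum, 2.56, 2.61 and 2.85 in J1-2i, and 1.81 to 2.33 in 3B3l. TKO-2i lay below every other array. The difference from J1-2i was -1.74 (SE 0.11 to 0.17, limma P.adj. 1.38e-05), and at chr8:119092623-119094219 (3 of 3 probes) it was -1.73 (P.adj. 1.1e-06).

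In 3B3l-2i the largest excess over J1-2i was the chromosome 5 region first described, at 4.13 (SE 0.23 to 0.41, limma P.adj. 2.73e-05). chr17:6830756-6832322 on the reverse strand (3 of 3 probes) read 2.23 and 1.68 in 3B3l-2i and between -1.57 and -0.03 on the other 14 arrays. The difference was 2.35, but 1 of its probes had an adjusted p of 0.029 and was not called without either 3B3l-2i array or without J1-2i replicate 2 or 3 (2.30 to 2.65). The wider chr17:6806500-6861042, with 1 member, differed by 0.33. chr13:81773237-81783062 was lower in 3B3l-2i than in J1-2i by 1.99 on the log2 scale, as each of its 6 probes was called (SE 0.15 to 0.21, limma P.adj. 6.07e-05). chr8:110197171-110206546 on the reverse strand (5 of 5 probes) read 1.12, 1.14 and 1.23 in J1-2i and -0.24 and -0.41 in 3B3l-2i, a difference of -1.51 (limma P.adj. 0.00014), of which 3 of 5 probes were called with the slide as a block.

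Some regions named as higher in TKO-2i were less steady. chr6:125407739-125408857 on the forward strand (2 of 2 probes) exceeded J1-2i by 1.38 (limma P.adj. 0.03), and 1 probe lost its call without TKO-2i replicate 1, 2 or 3 or J1-2i replicate 2 or 3 (1.30 to 1.41). The chr1:183783306-183834531 region exceeded J1-2i by 1.02 (P.adj. 0.00044), near the fold change limit, and kept all 3 calls neither without J1-2i replicate 1 or 2 (0.97 and 0.93) nor without TKO-2i replicate 2 (1.01).

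Whether a line responded to 2i differently from J1 was tested as a difference of responses. Between TKO and J1, 594 of 4462 members differed (13.3%, against 14% of all tested probes), and between 3B3l and J1, 552 of 4471 (12.3%, against 15.4%). Both use the J1 arrays. The response was smaller or more negative in TKO for 359 members (8.05%) and larger for 235 (5.27%), and in 3B3l for 329 (7.36%) and 223 (4.99%). Of all 27009 probes tested for TKO, 1975 were smaller or more negative and 1807 larger. Of the 27031 tested for 3B3l, these numbers were 2063 and 2087. The region on chromosome 4 differed most among the named ones for TKO, by -3.16 (limma P.adj. 6.03e-06).

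Some stretches of the genome held many calls. They were chosen after their values were seen and are described without a test. Of 417 windows of 5 Mb that held a member, 16 had 10 or more calls in 1 direction of 1 comparison. These windows held 17 to 65 members, and a window with more members reaches 10 calls more easily. Overlapping regions add to such counts, so whether calls gathered beyond the number of members was not tested. On chromosome 12, 10 forward regions with 32 members lay between 110738120 and 110988678. There 18 members were higher and 0 lower in TKO against J1 in serum, where 8.04% and 7.36% of all tested probes were, and 16 and 0 in 2i (against 4.29% and 3.39%). Against J1, 3B3l was higher at 19 members in serum (against 8.99%) and at 11 in 2i (against 8.57%), and lower at 0 in either medium (against 8.62% and 6.73%). The comparisons share J1 arrays. On the reverse strand of the same stretch, 3 of 11 members were higher and 0 lower in TKO-serum.

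Within that stretch chr12:110973190-110987668 (3 of 3 probes) read 0.19, 0.26, 0.17 and 0.23 in J1-serum, 1.52, 1.45 and 1.15 in J1-2i, 3.06 and 3.46 in TKO-serum, 3.19, 3.32 and 3.27 in TKO-2i, 3.05 and 2.98 in 3B3l-serum, and 2.87 and 2.49 in 3B3l-2i. All mutant arrays lay above all J1 arrays. In either mutant line 2 of the 3 probes were called in serum and 1 of the 3 in 2i. chr12:110909258-110913909 (3 of 3 probes) exceeded J1 by 1.95 in TKO-serum (limma P.adj. 0.00018), by 2.19 in TKO-2i (P.adj. 0.00029) and by 1.46 in 3B3l-serum (P.adj. 0.0013). In 3B3l-2i the difference was 1.19, with 2 of 3 probes called. chr12:110894095-110899517 (2 of 2 probes) exceeded J1 by 1.58 in TKO-serum (limma P.adj. 2.3e-05) and by 1.68 in 3B3l-serum (P.adj. 1e-05). In 2i the differences were 1.04 in TKO, with 1 of 2 probes called, and 0.77 in 3B3l, with 0 called.

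Chromosome 12 also carries the imprinted Dlk1-Dio3 domain, whose maternally expressed non-coding RNAs include Meg3 and Mirg. Their gene-named probes, which are no members, were higher in TKO-serum by 1.30 for Meg3 (SE 0.19, limma P.adj. 0.000135) and by 3.04 for Mirg (SE 0.18, P.adj. 6.64e-08). In 3B3l-serum the differences from J1 were 1.30 (P.adj. 0.000114) and 3.46 (P.adj. 1.93e-08), and in 2i Mirg was higher by 2.09 in TKO (P.adj. 2.66e-06) and 2.03 in 3B3l (P.adj. 5.52e-06). Meg3 was not called in 2i, with differences of 0.82 in TKO (limma P.adj. 0.0054) and 0.52 in 3B3l (P.adj. 0.057). Their distance from the stretch is not given here, as the annotation at hand is of another assembly.

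On chromosome 4, 9 forward regions with 21 members lay between 145000941 and 147171025. In J1, 16 members were higher in 2i and 0 lower, against 9.8% and 11.2% of all tested probes. TKO-serum exceeded J1-serum at 17 (against 8.04%) and fell below it at 0 (against 7.36%), while the 2i response in TKO had no call in either direction (against 5.79% and 7.94%). In 3B3l-2i, 10 members were lower than in J1-2i (against 6.73%) and 0 higher (against 8.57%). chr4:146017200-146029700 (4 of 4 members) read 0.35, 0.48, 0.51 and 0.46 in J1-serum, 2.07, 2.19 and 2.27 in J1-2i, 2.62 and 2.46 in TKO-serum, 1.78, 1.80 and 1.84 in TKO-2i, 0.74 and 0.51 in 3B3l-serum, and 0.91 and 1.08 in 3B3l-2i. The TKO arrays and J1-2i were high and J1-serum and 3B3l low, with no overlap. J1 rose by 1.77 in 2i (limma P.adj. 2.6e-08) and TKO exceeded J1 in serum by 2.04 (P.adj. 8.8e-08). On the reverse strand of the stretch the 2i response of the 16 members had 0 higher and 3 lower calls in J1, 0 and 9 in TKO, and 1 and 5 in 3B3l, where 11.2%, 7.94% and 6.11% of all tested probes were lower.

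On chromosome 13, 54 of 271 members were higher in J1-2i (19.9%, against 10.7% of the tested members and 9.8% of all tested probes). Gene-named probes were not placed on chromosomes here, so whether they share this was not tested. Between 62 and 75 Mb, 13 of 38 forward members were higher in J1-2i and 0 lower, and 21 of 57 reverse members were higher and 4 lower. At chr13:66381200-66410200 on the reverse strand all 4 members rose, by 1.83 (limma P.adj. 3.5e-07), and at chr13:74712775-74728450 all 4 rose by 1.65 (P.adj. 3.8e-05). In TKO 2 of the 38 forward members were higher in 2i and 0 lower, and none of the 57 reverse members was called (against 5.79% higher and 7.94% lower of all tested probes). In 3B3l 2 forward members were higher and 0 lower, and 7 reverse members were higher and 1 lower (against 4.91% and 6.11%).

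A few regions were well above background in 1 group and on no array of any other, a description that the rule itself sets up and that carries no test. In J1-serum chr8:34627209-34667814 on the forward strand (2 of 3 probes members) read -1.31, -1.27, -1.05 and -1.10, at least 4.70-fold above J1-2i and at least 2.20-fold above 3B3l-2i. In J1-2i chr8:131178212-131180657 on the forward strand (1 of 2 probes a member) read -1.54, -2.49 and -1.41, at least 2.73-fold above J1-serum and 1.42-fold above 3B3l-2i. In TKO-serum chr1:188532295-188532889 on the reverse strand (1 of 3) read -1.49 and -1.61, at least 2.47-fold above J1-serum. In TKO-2i chr8:49866197-49866841 on the reverse strand (1 of 3) read -1.15, -0.84 and -1.03, at least 5.31-fold above J1-2i, 5.81-fold above TKO-serum and 2.48-fold above 3B3l-2i.

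Probes of the same region often differed. In regions with 2 or more members, the SD of the J1 response between probes of a region was 0.72, beside 0.86 between region medians. For 3B3l against J1 in 2i both were 0.81. Of 406 such regions with any call in J1, 76 had every member called the same way, 242 had exactly 1 call and 12 had calls in both directions. For 3B3l against J1 in 2i, 55 of 433 had every member called the same way, 304 exactly 1 and 16 both directions. A position can also be probed on both strands, which holds for 1042 positions of the array and for 484 with members on both. Over 481 of these the J1 responses of the strands had a Pearson correlation of 0.017 and a Spearman correlation of 0.022, a description across positions that share arrays and are not independent. In J1, 23 positions had calls in the same direction on both strands, 23 in opposite directions, and 181 on 1 strand alone.

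**Figure D4:**
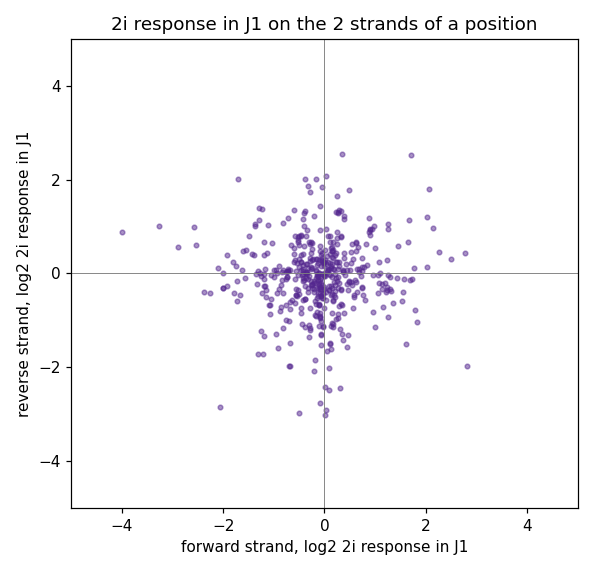
Log2 2i response in J1 of the forward strand (horizontal) and the reverse strand (vertical) for positions with members on both strands, 1 point each. The points form a cross around 0 with no slope, and the Pearson correlation was 0.017.

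For 6 of the genes paired with position-named members in the study's table, gene-named probes of the same gene were tested too. Over 7 comparisons the median gap between the 2 kinds of probe was 0.12 on the log2 scale for Nab1, with a largest gap of 0.39. It was 0.14 for Crabp2 (largest 1.49), 0.13 for Snx6 (0.52), 0.10 for Pdxk-ps (1.31) and 0.20 for Uck1 (0.50), whose position-named probes lie on another chromosome than the gene. For Plekha8 the gap to the gene-named probe A_55_P2033864 was 0.54 (largest 2.08). There the gene-named probes themselves disagreed, with 2i responses in J1 of -1.14 (A_55_P2033864) and 0.99 (A_52_P138205), and the 7 position-named probes gave 0.80 to 0.94. The gene-named Nab1 probe had a 2i response of -2.33 in TKO (limma P.adj. 6.51e-08), beside -2.37 and -2.51 for its position-named probes.

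**Figure D5:**
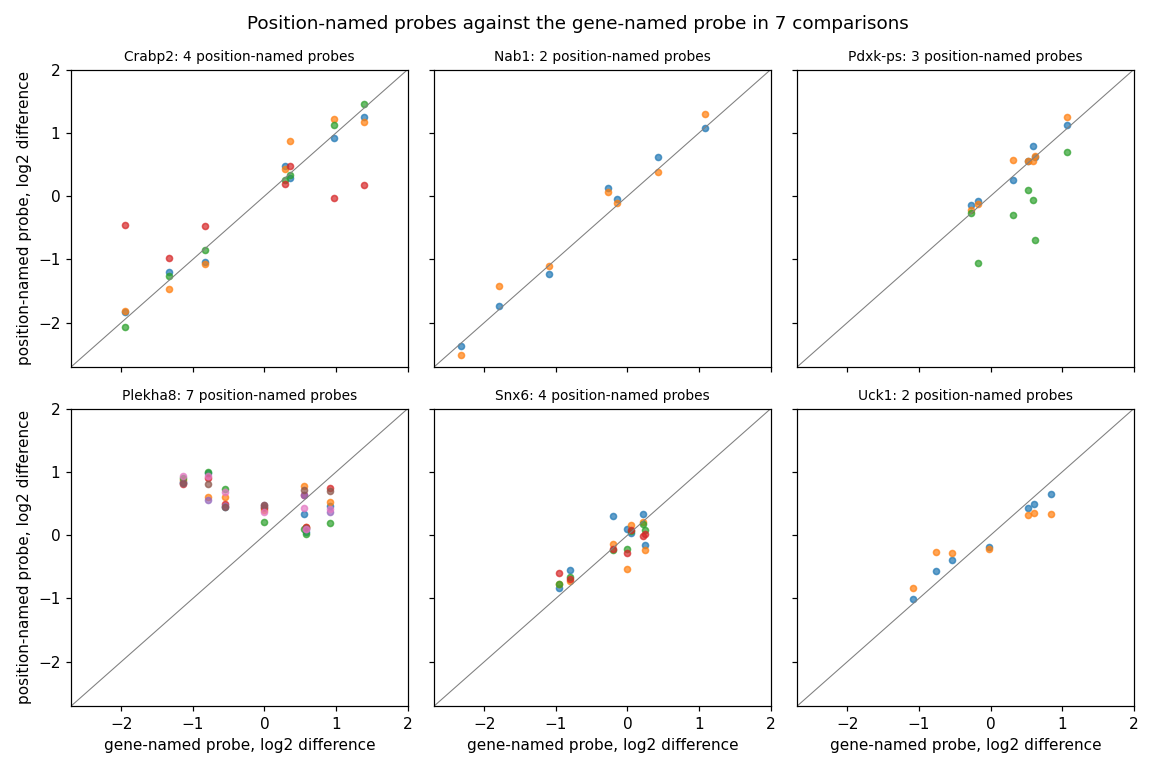
Log2 differences of position-named probes (vertical) against the gene-named probe of the paired gene (horizontal) in 7 comparisons, 1 panel for each of 6 genes and 1 colour for each position-named probe. The grey line marks equality. Nab1 follows it within 0.39, single probes of Crabp2 and Pdxk-ps leave it, and Plekha8 does not follow A_55_P2033864.

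For comparison, 46 annotated long non-coding RNA genes were listed, of which 29 had a gene-named probe on the array and 23 were tested. With 23 genes each call is 4.35% of the list. In J1, 4 were higher in 2i (17.4%, against 9.8% of all tested probes) and 0 lower (against 11.2%). In TKO 3 of 23 were higher (against 5.79%) and 0 lower (against 7.94%), and in 3B3l 1 was higher (4.35%, against 4.91%) and 3 of 23 lower (against 6.11%). In serum 6 were higher in TKO than in J1 (26.1%, against 8.04%) and 2 lower (8.70%, against 7.36%), and for 3B3l 5 were higher (21.7%, against 8.99%) and 4 lower (17.4%, against 8.62%). In 2i TKO had 2 higher (8.70%, against 4.29%) and 1 lower (4.35%, against 3.39%), and 3B3l had 2 higher (8.70%, against 8.57%) and 4 lower (17.4%, against 6.73%). With so few genes nothing is read from a share near that of the array. The median log2 difference of the list ran from -0.26 for 3B3l against J1 in 2i, where all tested probes had 0.09, to 0.21 for the 2i response in J1, where they had 0.04.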

How the data were processed

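RNA of 16 mESC samples was measured on one-colour Agilent arrays. Per the file headers, images were read with Agilent Feature Extraction (11.5.1.1), and the deposited processed signal is a fluorescence intensity after background subtraction and detrending, with no normalization between arrays. Flags for being well above background, saturated or an outlier are deposited as 0 or 1, that is, as other values. A second deposited file holds log2 values made by the authors for part of the probes (732 members), with medians of 8.28 to 8.43 and like quantiles in all arrays. Its values lay on a log2 scale, any centring stays unknown, and 13 of 16 columns were best matched by another replicate of the same group, so it served only as an alternative.

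Here log2 of the processed signal minus the array's 75th percentile over non-control spots was used. Outlier-flagged spots were dropped, which left 335 members without a value on some array (271 on J1-serum replicate 1), and saturated spots were kept. A dimmer group below background gives bounds only, set by the lowest signal well above background of each array. All arrays were fitted in limma 3.58.1 (R 4.3.3) with 6 group means and eBayes, with probe filtering and adjustment over the whole array, and the code was tested on simulated data. Array values limit precision through the number of arrays. Named regions were the 3 largest differences in each direction per comparison among regions with 2 or more members, all called and well above background in both groups without overlap, the 3 largest per direction called in all lines, the 4 brightest, regions of 1 group, strand pairs with the largest gap (their levels are not compared, since different probes were used), and regions with a known probe sequence. The members and lists were chosen with earlier results of these data known. Symbols of gene-named probes came from RefSeq (GRCm38.p6), through accessions, for 28026 probes. Position-named probes of sex chromosomes were not used. Slides and replicate numbers were tried as blocks; same-numbered arrays did not deviate together (r -0.272 to 0.293 in 33 pairs), so the numbers do not pair samples.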

Additional observations from a re-analysis of the deposited data

Results flagged for a closer look

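Among the named regions 1 array stood apart from its group. At chr7:6210340-6229115 on the forward strand J1-serum replicate 4 read -2.08 and the other 3 arrays -1.70 to -1.66, a gap beyond Dixon's 95% critical value for 4 arrays. Of 54 such groups of 4 arrays looked at, chance alone flags about 1 in 20.

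The other results flagged were named regions where every member had a 2i response that differed from that in J1 by limma's test of the difference. For TKO there were 14. The response in TKO minus that in J1 was 2.48 at chr5:35975265-35982561, 1.98 at chr5:125713450-125735500, 1.67 at chr5:37051650-37110575, 1.65 at chr10:81816994-81863610 and 1.07 at chr6:34548561-34612216. It was negative at the other 9, with -3.16 at chr4:146889650-146904300, -2.55 at chr13:62376235-62376890, -2.33 at chr13:98267049-98267604, -2.12 at chr2:104597982-104600748 and -1.93 at chr13:81773237-81783062. Smaller differences were -1.67 at chr7:67111261-67120697, -1.31 at chr8:119090566-119097735, -1.13 at chr1:52507332-52514490 and -1.08 at chr8:119092623-119094219.

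For 3B3l there were 15. The response in 3B3l minus that in J1 was 7.13 at chr5:35975265-35982561, 2.47 at chr10:81816994-81863610, 2.26 at chr10:83181374-83249774, 1.56 at chr10:83185606-83225506, 1.48 at chr5:125713450-125735500 and 1.37 at chr5:37051650-37110575. It was -3.11 at chr1:183783306-183834531, -2.40 at chr4:146889650-146904300, -2.33 at chr13:81773237-81783062, -2.23 at chr7:67111261-67120697 and -1.90 at chr6:34548561-34612216. The remaining 4 were -1.85 at chr13:98267049-98267604, -1.85 at chr2:104597982-104600748, -1.62 at chr4:127020290-127020504 and -1.10 at chr17:15368546-15377747. Both sets share the J1 arrays, and where a probe was below background in a group the fitted difference is no bound. At chr5:125713450-125735500 and chr6:34548561-34612216 the single probe was well above background on no array of J1-2i, TKO-2i or 3B3l-2i. Neither the size nor the direction of the differences there is measured, although both regions are counted among those flagged for TKO and 3B3l. At chr10:81816994-81863610 and chr17:15368546-15377747 no member was so on any 3B3l-2i array, at chr1:183783306-183834531 at least 1 member was not, and at chr4:127020290-127020504 at least 1 member was well above background on no J1-serum or 3B3l-serum array, so the values for 3B3l there are not measured sizes either.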

How the results depend on the processing

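The counts of members called are given in the order 2i response in J1, TKO and 3B3l, TKO against J1 in serum and in 2i, and 3B3l against J1 in serum and in 2i. The authors' table, which changes both the probes and their values, gave 164, 130, 99, 136, 78, 140 and 116 calls among the 732 members it holds, and 119 and 110 for the differences of responses of TKO and 3B3l from J1. Restricting to probes that passed the flag on each of the 16 arrays gave 251, 121, 101, 199, 92, 219 and 250, and 226 and 202. Without a fold change limit there were 1684, 852, 575, 1139, 796, 1273 and 1561. Members well above background in both groups, a choice made after seeing the data, gave 281, 174, 110, 258, 111, 234 and 267. Apart from the setting without a fold change limit, these count calls over fewer probes. Normexp background correction gave 169 for the 2i response in 3B3l and 611 for 3B3l against J1 in 2i, slide 1 alone 843 for TKO against J1 in 2i, and the slide as a block 415 for 3B3l against J1 in 2i; the cause was not tested.

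Leaving out 1 array at a time gave 819 to 999 calls for the 2i response in J1, 427 to 511 in TKO and 258 to 350 in 3B3l. The ranges were 512 to 671 for TKO against J1 in serum, 250 to 848 in 2i, 515 to 812 for 3B3l against J1 in serum, 662 to 984 in 2i, and 506 to 751 and 467 to 663 for the differences of responses of TKO and 3B3l. With the replicate number as a block the counts were 879, 471, 284, 681, 395, 519 and 822, and 560 and 512 for the differences, none beyond 1.5 times the main count. The share of higher calls moved by over 10 points in J1 (480 of 941 calls to 62.9% with median scaling), in TKO (48.4% to 33.8% in the authors' table and 37.2% with probes well above background on all arrays), in 3B3l (42.7% to 53.6% with median scaling and 28.3% in the authors' table), in TKO against J1 in 2i (66.4% to 46.2% in the authors' table), in 3B3l against J1 in 2i (59.5% to 74.5% with normexp and 42.7% with the slide as a block) and in the difference of responses of TKO (39.6% to 29.4% in the authors' table). Of 57 pairs of a named region and a comparison, none reversed, and 47 stayed called under every alternative that could be run.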
